A study of Bos taurus with 16 samples.

Results

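The genes described here code for the extracellular matrix, for the enzymes that cross-link and cut it, for the inhibitors of those enzymes and for growth factors that drive its deposition. They were taken from a list of 49 gene names, and a gene was a member when a probe of the array that was no control spot carried its name. Of the 49 names, 46 had a probe and 3 had none (COL5A1, COL6A3 and COL14A1). The 46 members were read by 152 probes, out of 26554 genes and 46615 probes on the array, and the values of a gene's probes were averaged. The samples came from 8 multiparous Holstein cows at 45 to 55 days post-partum. Of these, 4 had subclinical endometritis (SCE; cows 718, 833, 836 and 846), an inflammation of the uterine lining without clinical signs that was diagnosed by histology, and 4 were healthy (cows 841, 850, 877 and 883). Each cow gave circulating white blood cells (WBC, from blood stabilised in PAXgene tubes) and a biopsy of the endometrium, the inner lining of the uterus. Each RNA was labelled with 1 dye and hybridised to its own array, which made 16 arrays in 4 groups of 4. The cows were in mixed stages of the estrous cycle, which the labels do not tie to single cows. By the paper, the SCE group held more luteal than follicular cows and the healthy group equal numbers, so stage was not balanced between them. The paper also reports that stage affected several endometrial transcripts in healthy cows. The part of stage in the SCE comparisons was not tested.

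The extracellular matrix is the network that holds tissue together. Fibrillar collagens give it tensile strength, collagens and laminins of the basement membrane form thin sheets under epithelium and around vessels, and proteoglycans space the fibrils and bind growth factors. The stroma of the endometrium is rich in this matrix, which is taken apart and rebuilt after calving, whereas leukocytes in the blood carry little of it and contribute proteases such as the gelatinase of neutrophil granules. In the uterus, lasting inflammation can be followed by fibrosis, the excess deposition of collagen.

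Values are log2 signals after quantile normalization over the 16 arrays, and a difference of 1 on this scale is a doubling. The signal of a probe also depends on its sequence, so values are compared between samples and not between genes. The 2 tissues were hybridised on separate slides of 8 arrays, and tissue and slide cannot be told apart. Each row of a slide held 2 SCE and 2 healthy cows. The endometrium array of SCE cow 833 stood apart, with a median spot signal of 115.5 against 304 to 374 on the other 7 endometrium arrays and 64.7% of spots well above background. The WBC array of the same cow was the brightest of its slide, with a median of 258.5 against 133 to 180.5 and 75.8% of spots well above background against 66.3% to 71.9%. The main counts and medians of the SCE comparisons within each tissue are given with and without this cow. The labelled tissues were checked against marker genes. In WBC, 8 of 8 leukocyte markers were higher than in the endometrium in both groups of cows. All 6 fibroblast and stroma markers tested, all 8 smooth muscle markers and 7 of 8 endothelium markers were higher in the endometrium. A biopsy holds all of these cells, and in such bulk samples fewer cells of a type and less RNA per cell cannot be told apart.

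Most matrix genes had higher signals in the endometrium than in WBC of the same cows. In healthy cows 35 of 46 members were higher in the endometrium, 3 were lower and 8 did not pass (limma's TREAT test against a 1.2-fold threshold, with p adjusted over all genes by Benjamini-Hochberg, which is the adjusted p given throughout; an unadjusted p is that of the same test), where 19.3% of all 26523 genes tested were higher and 26.4% lower. In SCE cows 36 members were higher, 3 were lower and 7 did not pass, where 19% of all genes were higher and 24.8% lower. The median difference over the 46 members was 3.68 in healthy cows and 2.95 in SCE cows, against -0.15 over all genes in each. The signal was higher in the endometrium in all 8 cows for 36 members, against 20% of all genes, and lower in all 8 cows for 3 members, against 28.6% of all genes. The remaining 7 members (MMP1, MMP11, MMP19, ADAMTS2, TIMP1, TGFB2 and ELN) had cows on both sides of 0. The scaling of the arrays moves the zero of this comparison. With each tissue normalized separately, the median of all genes was 0.33 in healthy cows and 0.34 in SCE cows, and with signals scaled to the 75th percentile it was -0.47 and -0.35.

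**Figure D1:**
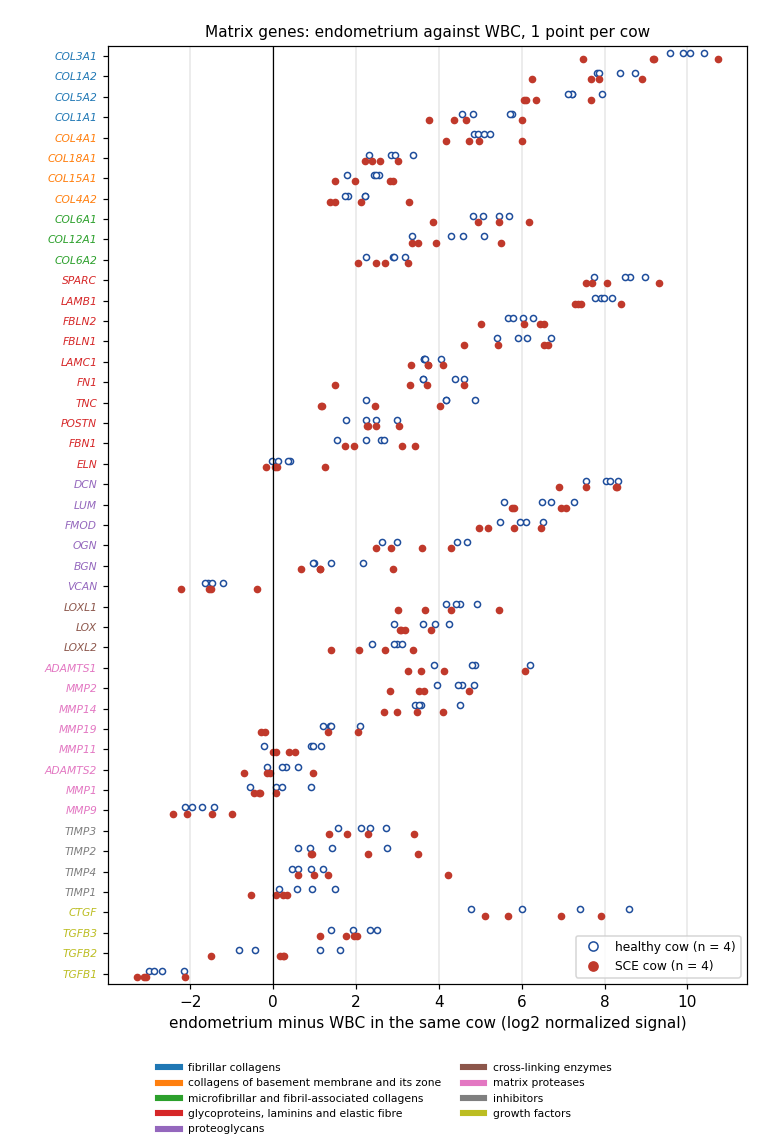
Each point is the difference of 1 cow between its endometrium and its WBC array for 1 matrix gene, in log2 normalized signal, with open circles for the 4 healthy cows, filled circles for the 4 SCE cows and gene names coloured by class. COL3A1 lies farthest to the right in the mean, 36 genes lie to the right of 0 in all 8 cows, and VCAN, MMP9 and TGFB1 lie to the left of 0 in all 8.

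Fibrillar collagens, the main load-bearing fibres, were higher in the endometrium for 4 of 4 measured members in both groups, with a median difference of 7.78 in healthy cows and 7.11 in SCE cows. COL3A1, the chain of the thin fibrils of soft tissue, gave 6.53, 6.42, 6.41 and 6.37 in WBC and 16.42, 15.996, 16.82 and 16.42 in the endometrium of healthy cows 841, 850, 877 and 883. In SCE cows 718, 833, 836 and 846 it gave 6.40, 6.29, 6.45 and 6.49 in WBC and 15.60, 13.77, 15.63 and 17.23 in the endometrium. The WBC values of all 8 cows lay together and far below the endometrium, where cow 833 was the lowest and cow 846 the highest. The difference was 9.99 ± 0.47 (SE) in healthy cows (adjusted p = 1.48e-10) and 9.15 ± 0.47 in SCE cows (adjusted p = 4.25e-10).

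COL1A2, the second chain of type I collagen, gave 6.08, 6.03, 6.22 and 6.17 in WBC and 14.81, 13.85, 14.59 and 14.03 in the endometrium of healthy cows in the same order. In SCE cows the WBC values were 5.99, 5.84, 5.89 and 6.23 and the endometrium values 13.87, 12.08, 13.57 and 15.13, again with cow 833 lowest and cow 846 highest. Its difference was 8.19 ± 0.43 in healthy and 7.67 ± 0.43 in SCE cows (adjusted p = 5.55e-10 and 1.33e-09). COL1A1, the first chain of type I collagen, differed by 5.21 ± 0.38 and 4.69 ± 0.38. COL5A2, a chain of the collagen that regulates fibril diameter, was not well above background in the WBC of any healthy cow and was at least 142-fold higher in their endometrium. For such a bound the dim group was given, on each array, the gene's value or the weakest signal still well above background there, whichever was higher.

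The size of these differences depended on the probe within a gene. For COL1A1 the mean difference of 8 cows ran from 0.55 to 10.54 over 5 probes, and for COL3A1 from 2.42 to 12.12 over 10. The 2 COL1A2 probes that start at bases 2314 and 2586 of the transcript differed by 2.61 and 3.07, and the 4 that start at base 3928 or later by 9.21 to 11.1. Taking the probe with the highest signal in place of the mean lowered the COL3A1 difference to 2.65 in healthy cows and 2.19 in SCE cows. A collagen triple helix repeats the glycine of a Gly-X-Y triplet along its length, and 5 of the 152 probes of these genes read a stretch in which this repeat can be seen, the 5 being found by a search for GG at every 9 bases along the whole probe. They are shown because they carry the collagen code itself and include both COL1A2 probes with the small differences. The pattern was met in 17 of all 46615 probes (0.0365%). The probes are printed 5′ to 3′ with the glycine codons in capitals:

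COL1A1 (chr19:37646195-37646474, plus strand): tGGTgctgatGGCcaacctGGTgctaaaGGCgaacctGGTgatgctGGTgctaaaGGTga
COL1A2 first (chr4:12044652-12044711, plus strand): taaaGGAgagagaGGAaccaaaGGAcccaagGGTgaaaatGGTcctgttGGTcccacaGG
COL1A2 second (chr4:12047111-12047170, plus strand): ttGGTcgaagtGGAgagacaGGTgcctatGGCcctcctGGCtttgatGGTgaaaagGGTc
COL4A1 (chr12:82969811-82969870, minus strand): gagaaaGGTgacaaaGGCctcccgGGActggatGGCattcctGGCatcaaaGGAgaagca
COL6A2 (chr1:148774362-148774705, plus strand): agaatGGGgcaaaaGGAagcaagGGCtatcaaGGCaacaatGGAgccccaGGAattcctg

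Positions are those the scanner files give, whose header names the cattle build HGSC Btau_3.1. The paper names another assembly for the transcripts behind the array design, and which of them the positions follow was not checked. The COL1A1 and COL6A2 probes cover 280 and 344 bases of genome with 60 bases of sequence and so cross from 1 exon to the next, whereas the other 3 cover 60 bases. All 5 lie in coding sequence, as the unbroken glycine repeat shows. The mean difference between endometrium and WBC was 3.57 for this COL1A1 probe, 2.61 and 3.07 for the COL1A2 probes, 1.03 for COL4A1 and 1.83 for COL6A2. The first COL1A2 probe was not well above background in the WBC of any cow.

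**Figure D2:**
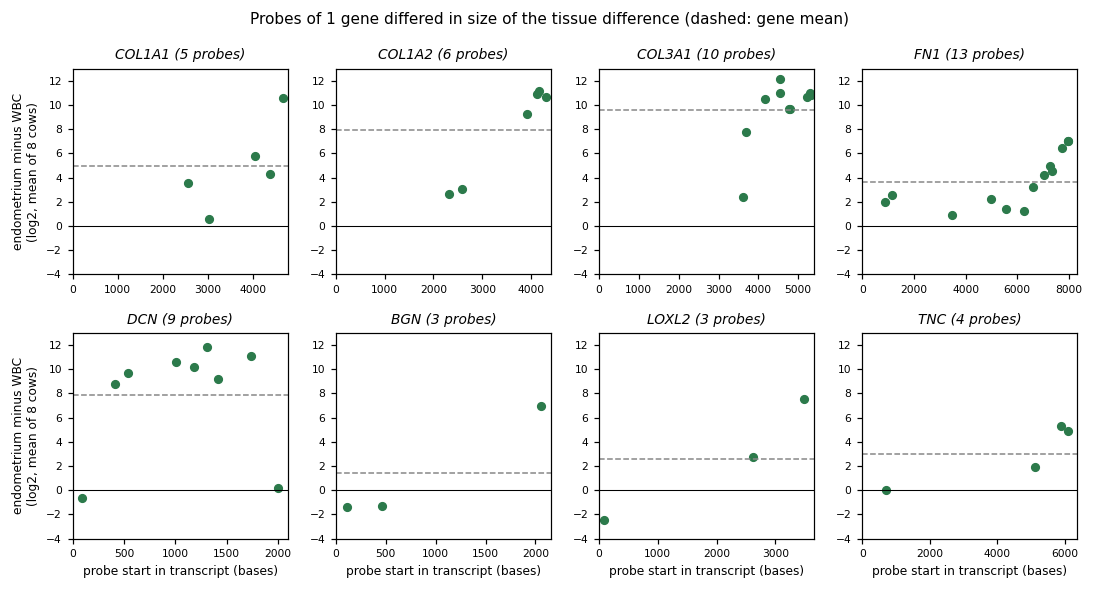
Each point is 1 probe of a gene, placed by its start in the transcript in bases and by its mean difference between endometrium and WBC over 8 cows in log2 signal, with the mean over probes as a dashed line. Probes of 1 gene differed widely, from 0.55 to 10.5 in COL1A1, and 1 DCN probe, 2 BGN probes and 1 LOXL2 probe lie below 0.

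Collagens of the basement membrane and its zone were higher in the endometrium for 4 of 4 members in both groups, with median differences of 2.59 and 2.42. COL4A1, a chain of the type IV network, differed by 5.03 ± 0.23 in healthy and 4.97 ± 0.23 in SCE cows, and its partner COL4A2 by 1.99 ± 0.28 and 2.06 ± 0.28. COL15A1 and COL18A1, which link basement membranes to the stroma and of which the latter yields endostatin, differed by 2.31 and 2.87 in healthy cows and by 2.30 and 2.54 in SCE cows. The microfibrillar and fibril-associated collagens were higher in the endometrium for 3 of 3 members, COL6A1 by 5.26 and 5.11 and COL6A2 by 2.81 and 2.62. COL12A1, which binds to fibril surfaces, was not well above background in the WBC of any cow and was at least 19.2-fold higher in the endometrium of healthy cows and at least 15.9-fold higher in SCE cows.

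Of the 10 glycoproteins, laminins and elastic fibre genes, 9 were higher in the endometrium of both groups and ELN, the elastin gene, did not pass. SPARC, a collagen-binding glycoprotein that assists fibril assembly, gave 5.93, 6.33, 5.94 and 5.94 in WBC and 14.56, 14.08, 14.93 and 14.44 in the endometrium of healthy cows. The SCE cows gave 5.97, 5.90, 6.30 and 5.96 in WBC and 13.53, 13.96, 13.99 and 15.28 in the endometrium. The tissues stood apart in every cow, with a difference of 8.47 ± 0.29 in healthy cows (adjusted p = 5.78e-12) and 8.16 ± 0.29 in SCE cows (adjusted p = 9.5e-12). LAMB1, a laminin chain, was not well above background in the WBC of any cow and was at least 249.9-fold and 191-fold higher in the endometrium of healthy and SCE cows. FBLN2, an elastic fibre protein, was dim on all WBC arrays in the same way, with bounds of 56.6-fold and 56.3-fold. These bounds rest on 1 probe. Matching through RefSeq added a further FBLN2 probe to the mean. The tissue differences of FBLN2 then kept their direction, but its SCE difference in the endometrium changed sign. FN1, the adhesive protein fibronectin, differed by 4.05 ± 0.36 and 3.28 ± 0.36. TNC, a glycoprotein of remodelling tissue, differed by 3.86 ± 0.57 and 2.20 ± 0.57. TNC was not well above background in the WBC of any healthy cow, and its bound there equals the mean difference (14.5-fold). Single healthy cows differed by 2.23 to 4.86 in TNC. The other members, the laminin chain LAMC1, the microfibril gene FBN1, FBLN1 and the matricellular gene POSTN, differed by 2.26 (FBN1) to 6.03 (FBLN1) in healthy cows. FBN1 was not well above background in the WBC of any SCE cow and was at least 5.12-fold higher in their endometrium.

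Among the 6 proteoglycans, 5 were higher in the endometrium and VCAN was lower. DCN (decorin), LUM (lumican) and FMOD (fibromodulin), small leucine-rich proteoglycans that bind collagen fibrils, differed by 8.01 ± 0.28, 6.50 ± 0.34 and 6.02 ± 0.41 in healthy cows and by 7.76, 6.40 and 5.61 in SCE cows. LUM was not well above background in the WBC of any cow, and its bounds were at least 85.4-fold in healthy and at least 77.5-fold in SCE cows. OGN, which codes for osteoglycin, differed by 3.68 and 3.30. BGN, which codes for biglycan, differed by 1.38 and 1.46, but 2 of its 3 probes were lower in the endometrium. With the probe of highest signal in place of the mean, the directions of BGN, DCN, LOXL2 and COL6A2 turned in both groups of cows, as did those of ADAMTS2 and MMP11, which had passed in neither.

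VCAN, which codes for versican, a large proteoglycan also made by monocytes, gave 9.34, 9.56, 9.54 and 9.65 in WBC and 8.14, 7.98, 8.07 and 8.02 in the endometrium of healthy cows. In SCE cows the values were 9.80, 9.30, 10.08 and 9.99 in WBC and 8.24, 7.79, 7.85 and 9.59 in the endometrium. Only the endometrium of cow 846 overlapped the range of WBC. This gene was read by 1 probe alone. VCAN was lower in the endometrium, with a difference of -1.47 ± 0.30 in healthy cows (adjusted p = 0.00202) and -1.42 ± 0.30 in SCE cows (adjusted p = 0.00285). With each tissue normalized separately the differences were -0.53 and -0.48 and passed in neither group. The median of all genes moved up in the same way, from -0.15 to 0.33 in healthy cows and to 0.34 in SCE cows.

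The cross-linking enzymes, which tie collagen and elastin chains together, were higher in the endometrium for 3 of 3 members in both groups. LOX (lysyl oxidase) differed by 3.68 ± 0.23 in healthy and 3.28 ± 0.23 in SCE cows, and LOXL2 by 2.84 ± 0.30 and 2.38 ± 0.30. LOXL1 was not well above background in the WBC of any cow and was at least 21.4-fold and at least 16.2-fold higher in the endometrium. The 3 LOXL2 probes ran from -2.45 to 7.54.

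The matrix proteases were divided. In healthy cows 4 of 8 were higher in the endometrium, 1 was lower and 3 did not pass, and in SCE cows the counts were 3, 1 and 4. MMP2, the gelatinase of stromal cells, differed by 4.46 ± 0.31 in healthy and 3.67 ± 0.31 in SCE cows, and ADAMTS1, which cuts proteoglycans, by 4.95 ± 0.50 and 4.26 ± 0.50. MMP14, the membrane-bound activator of the MMP2 protein, was not well above background in the WBC of any cow, with bounds of at least 12.7-fold and at least 8.94-fold. MMP19 passed in healthy cows at 1.52 ± 0.47 (adjusted p = 0.0224) and not in SCE cows at 0.72 ± 0.47, and the test of the difference between these did not pass (unadjusted p = 0.276). The MMP19 call in healthy cows was lost without healthy cow 841, 850 or 877, with adjusted p-values of 0.0564, 0.0584 and 0.104.

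MMP9, the gelatinase of neutrophil granules, gave 8.57, 7.97, 8.33 and 8.73 in WBC and 6.60, 6.54, 6.60 and 6.60 in the endometrium of healthy cows. In SCE cows it gave 8.67, 7.87, 8.13 and 8.86 in WBC and 6.58, 6.87, 6.65 and 6.45 in the endometrium. The endometrium of all 8 cows lay below all WBC values, and the difference was -1.81 ± 0.20 in healthy cows (adjusted p = 7.61e-06) and -1.74 ± 0.20 in SCE cows (adjusted p = 1.28e-05). MMP1, a collagenase that cuts fibrillar collagen, passed in neither group. In healthy cows the endometrium minus WBC difference came to 0.07, -0.56, 0.21 and 0.92. In SCE cows it came to -0.46, 0.06, -0.31 and -0.35, in the order of cows used above. These lay on both sides of 0, with a mean of -0.05 ± 0.48 (SD, n = 8 cows; exact sign-flip permutation test, two-sided, p = 0.773). In that test the smallest p that 8 cows allow is 0.0078, which VCAN, MMP9, TGFB1 and all 36 genes higher in every cow reached. MMP11 and ADAMTS2, the latter a procollagen-trimming enzyme, passed in neither group.

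Of the 4 inhibitors of metalloproteinases, the TIMP genes, 1 was higher in the endometrium of healthy cows and 3 in that of SCE cows, and the others did not pass. TIMP3, which binds to the matrix, was higher in the endometrium by 2.19 ± 0.28 in healthy and 2.21 ± 0.28 in SCE cows. TIMP1 gave 11.52, 12.82, 12.33 and 11.51 in the endometrium of healthy cows and 11.62, 11.04, 10.82 and 11.84 in that of SCE cows, and 10.94 to 11.39 and 10.81 to 11.56 in their WBC. The tissues overlapped in SCE cows and not in healthy cows, and the difference was 0.78 ± 0.29 in healthy cows (adjusted p = 0.1003) and 0.02 ± 0.29 in SCE cows (adjusted p = 0.999973). The latter turned below 0 when signals were scaled to the 75th percentile or when cow 833 or 846 was left out.

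TIMP2, whose values are given after they had been seen, fell into high and lower arrays across both groups of cows. In the endometrium it gave 13.82, 14.82, 14.45 and 16.27 in healthy cows and 16.05, 14.03, 16.69 and 14.53 in SCE cows, so that healthy cow 883 and SCE cows 718 and 836 lay above 16 and the other 5 cows between 13.82 and 14.82. In WBC all 8 cows lay between 13.10 and 13.76. TIMP2 differed between tissues by 1.41 ± 0.53 in healthy cows (adjusted p = 0.0585, and from 0.0087 to 0.239 over the alternative settings, with 0.0494 with the cow as a block) and 1.91 ± 0.53 in SCE cows (adjusted p = 0.0122). In healthy cows TIMP2 passed in 8 of 19 alternatives, and in SCE cows the call was lost without cow 718 or 836, with adjusted p-values of 0.0515 and 0.0906. TIMP4 was not well above background in the WBC of any cow. In SCE cows its mean was at least 3.15-fold higher in the endometrium (adjusted p = 0.0221). Cow 833 differed by 4.23, and cows 718, 836 and 846 by 0.60, 0.98 and 1.31, each below that bound. Without cow 833 the TIMP4 difference was 0.96 in place of 1.78. In healthy cows it did not pass at 0.79 (adjusted p = 0.344), but passed when SCE cow 833, which enters the shared estimate of the spread, was left out (adjusted p = 0.0037).

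The growth factors were also divided. CTGF (CCN2 in RefSeq), a matricellular factor of fibrotic tissue, was not well above background in the WBC of any healthy cow and was at least 102-fold higher in their endometrium. The difference in SCE cows was 6.41 ± 0.64. It spread widely in the endometrium, from 10.80 to 14.37 in healthy cows and from 11.31 to 13.95 in SCE cows. TGFB3 was higher in the endometrium by 2.04 ± 0.20 and 1.71 ± 0.20, and TGFB2 passed in neither group.

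TGFB1, the isoform that leukocytes and platelets carry, went the other way and was read by 1 probe alone. It gave 10.67, 10.44, 10.48 and 10.36 in WBC and 7.66, 8.28, 7.78 and 7.47 in the endometrium of healthy cows. In SCE cows it gave 10.72, 9.90, 10.37 and 10.99 in WBC and 7.60, 7.77, 7.29 and 7.69 in the endometrium. No endometrium value reached a WBC value, and TGFB1 was lower in the endometrium, with a difference of -2.69 ± 0.22 in healthy cows (adjusted p = 1.12e-07) and -2.91 ± 0.22 in SCE cows (adjusted p = 4.56e-08).

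In the endometrium, no matrix gene passed the comparison of SCE and healthy cows, and most lay somewhat below 0. None of the 46 members passed the TREAT test after adjustment, as none of the 26528 genes did (0%), and none had an unadjusted p at or below 0.05, against 101 of all genes (0.381%). No member parted the 4 SCE cows from the 4 healthy cows without overlap, against 1.49% of all genes. The difference, SCE minus healthy, was below 0 in 36 of 46 members (78.3%), against 49.4% of all genes, with a median of -0.32 against 0.0025. The 46 members were read in the same 8 biopsies and are not separate observations. Without SCE cow 833, 38 members lay below 0 with a median of -0.18, and without SCE cow 846, 40 did with a median of -0.52. Within the rows of the slide, of 2 SCE and 2 healthy cows each, the medians were -0.35 and -0.17 and 33 and 34 members lay below 0.

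All 11 measured collagens had differences below 0 in the SCE endometrium, from -0.86 in COL3A1 to -0.09 in COL4A1 with a median of -0.43, and none passed (smallest unadjusted p = 0.238). Between 0 and 2 of the 11 turned above 0 when 1 cow was left out. Without SCE cow 833 the median of the 11 was -0.17, COL3A1 was at -0.26 and COL6A1 at 0.005, and without SCE cow 846 the median was -0.74. The fibrillar collagens had a median of -0.57, the microfibrillar and fibril-associated ones -0.31 and those of the basement membrane and its zone -0.12. Without cow 833 this order turned, at -0.16, -0.09 and -0.36, and without cow 846 the medians were -1.12, -0.74 and -0.25. Without cow 718 or 836 the basement membrane median was 0.05 and 0.01. The 3 cross-linking enzymes were below 0 (median -0.37), as were 7 of 10 glycoproteins, laminins and elastic fibre genes (-0.18), 4 of 6 proteoglycans (-0.23), 6 of 8 proteases (-0.43) and 4 of 4 growth factors (-0.34). Of the 4 inhibitors 3 lay above 0 (median 0.28), but without cow 833 only TIMP2 and TIMP4 did (median -0.08). Without cow 833 the proteoglycan median was 0.0024 with 3 of 6 below 0, the protease median -0.29 and the cross-linking median -0.23. No member of any of these classes passed.

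**Figure D3:**
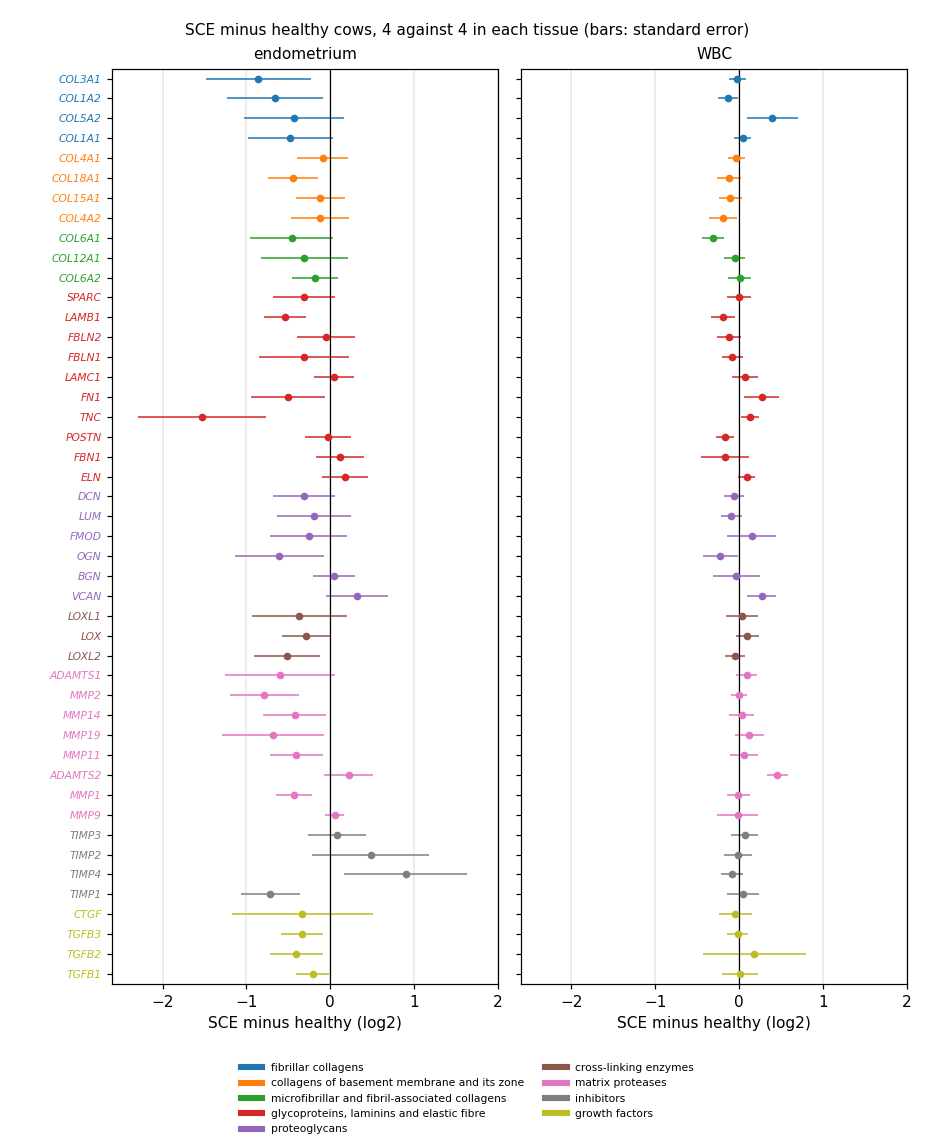
Points give the difference SCE minus healthy of each of 46 matrix genes in log2 normalized signal, with bars for 1 standard error and 4 cows in each group, for the endometrium on the left and WBC on the right, on the same scale. In the endometrium 36 genes lie to the left of 0, TNC farthest at -1.53, and in WBC most genes lie near 0.

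The members closest to the threshold in the endometrium are given after their values had been seen. TNC gave 10.74, 10.04, 10.03 and 8.14 in healthy cows 841, 850, 877 and 883. Its values in SCE cows 718, 833, 836 and 846 were 8.42, 7.31, 7.003 and 10.104. Healthy cow 883 lay with the 3 lower SCE cows and SCE cow 846 with the 3 higher healthy cows. The difference was -1.53 ± 0.77 (unadjusted p = 0.0918; exact permutation test, two-sided, p = 0.2; adjusted p = 0.999999), and leaving out 1 cow moved it between -1.13 and -2.16. Over its 4 probes it ran from -2.45 to -0.20. MMP2 gave 10.9998, 10.31, 11.26 and 10.80 in healthy cows and 9.92, 9.11, 10.01 and 11.18 in SCE cows, where 3 SCE cows lay below all healthy cows and cow 846 among them. The MMP2 difference was -0.47 without cow 833 and -1.16 without cow 846, beside its full value (-0.79 ± 0.41, unadjusted p = 0.135, exact permutation p = 0.143). TIMP1, whose values stand above, differed by -0.71 ± 0.35 (unadjusted p = 0.129, exact permutation p = 0.171), and LAMB1 by -0.54 ± 0.25 (unadjusted p = 0.153, exact permutation p = 0.114).

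TIMP4 had a mean difference above 0, which 1 cow set. It gave 6.26, 6.74, 6.73 and 6.61 in the endometrium of healthy cows and 6.44, 10.01, 6.61 and 6.86 in that of SCE cows, so that cow 833 lay more than 3 log2 units above all others. The difference was 0.90 ± 0.73 (unadjusted p = 0.281, exact permutation p = 0.371), and 0.05 without cow 833.

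**Figure D4:**
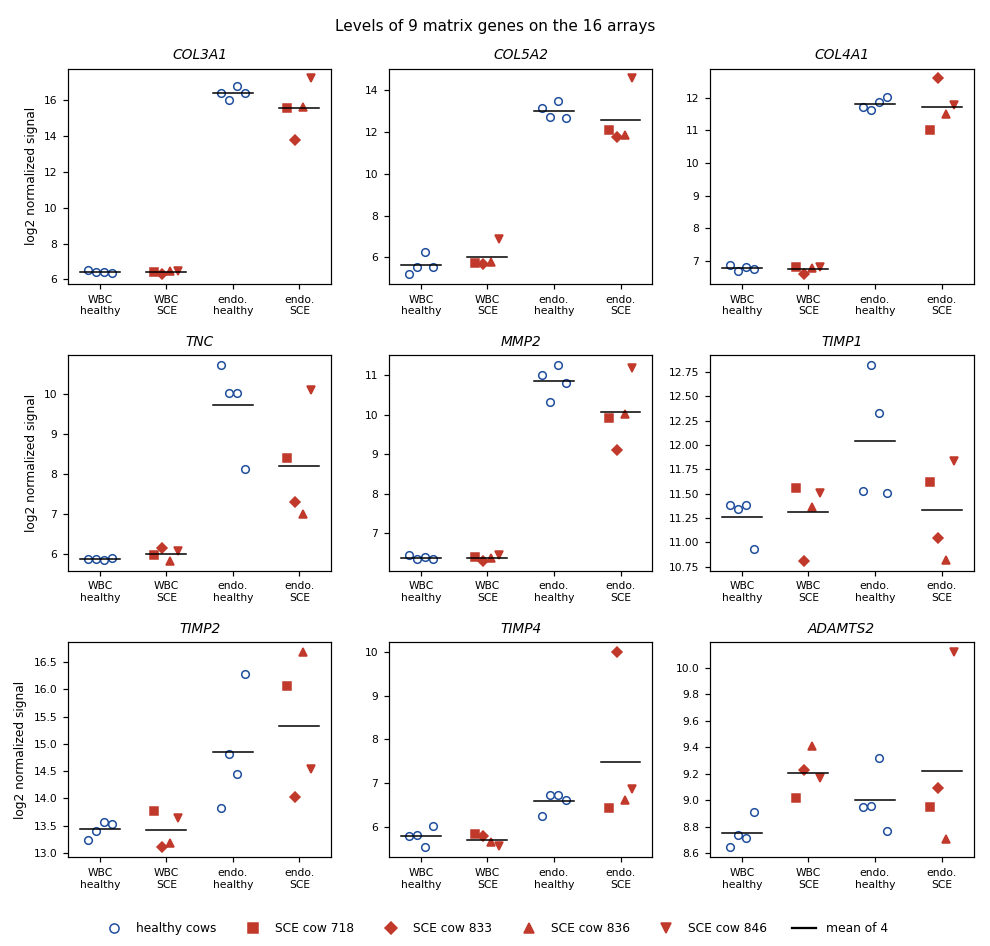
Log2 normalized signal of 9 matrix genes on the 16 arrays, with open circles for healthy cows, a filled symbol for each SCE cow and a line at the mean of 4. In the endometrium, SCE cow 846 is the highest of 8 for COL3A1 and COL5A2, SCE cow 833 is the highest for COL4A1 and TIMP4, and TIMP2 lies above 16 in 1 healthy and 2 SCE cows.

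The SCE cows differed widely from each other in the endometrium. Cow 846 had the highest value of all 8 cows for 17 of 46 members (37%, against 9.03% of all genes), among them all 4 fibrillar collagens, and a median deviation of 0.49 from the mean of the 8 cows. Cow 836 had the lowest value for 18 members (39.1%, against 13.5% of all genes) and lay above the mean for 2 of 46 (median deviation -0.47). Cow 833 was the highest for 9 members and the lowest for 13 (19.6% and 28.3%), near its shares over all genes of 28.1% and 26.5%. It was the lowest for all 4 fibrillar collagens (median deviation -1.55), but the highest for COL4A1 at 12.59 and COL4A2 at 9.77, where the other 7 cows reached 12.01 and 9.04. Cow 718 had a median deviation of -0.26. Among healthy cows, cow 877 lay above the mean for 40 of 46 members (87%, against 49.4% of all genes; median deviation 0.34) and the median deviations of the other 3 lay between -0.09 and -0.01.

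Marker genes of single cell types are given beside these differences. The mean level of 8 endothelium markers was 11.77 in cow 833 and 9.53 to 10.30 in the other 7 cows. The mean level of 5 fibroblast and stroma markers measured on every array was 9.99 in cow 833 and 10.47 in cow 836, against 10.94 to 12.22 in the other 6, with cow 877 the highest, and their summed signal ran from 30630 to 71036 in healthy cows and from 9246 to 42141 in SCE cows. Of the 6 tested, 5 lay below 0 in SCE cows and TCF21 lay above it, at 1.45 (unadjusted p = 0.0192, adjusted p = 0.999999). The mean level of the 5 stroma markers in WBC was 5.88 to 6.18. Epithelium markers ranged from 8.64 to 10.28 in the endometrium of healthy cows and from 9.40 to 10.48 in that of SCE cows. Smooth muscle markers ranged from 9.99 to 11.97 in healthy cows and from 10.28 to 12.01 in SCE cows, and were highest in cow 836. Cow 846, with the highest matrix values, had a stroma mean of 11.48, the highest of the SCE cows and below healthy cows 850 and 877. Its summed stroma signal of 42141 was below that of cow 877 only. For smooth muscle it lay at 10.46 and for epithelium at 9.43. It was the lowest of 8 for endothelium, at 9.53 beside 9.54 in cow 883. Neutrophil markers ranged from 7.001 to 7.42 in healthy cows and from 7.26 to 8.27 in SCE cows. The highest value was that of cow 833, and the other SCE cows reached 7.71. In single biopsies 3 to 7 of the 8 markers were above background, with 4 in cow 833. All 8 had differences above 0, where 49.4% of all genes lay below 0. S100A8, which neutrophils carry, was at 1.60 (unadjusted p = 0.0362, adjusted p = 0.999999). The summed signal of 7 erythroid markers was 95492 in cow 833 and 21986 to 37158 in the other 7 biopsies. Their part in the matrix results was not tested.

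Without SCE cow 846, 8 members had an unadjusted p at or below 0.05, as did 429 of 26513 genes, and none passed after adjustment. All 8 were lower in the 3 remaining SCE cows: COL3A1, COL5A2, LAMB1, LOXL1, LOXL2, MMP2, MMP19 and TNC. Cow 846 had the highest SCE value for all 8, so leaving it out lowers the SCE mean by itself. The count is therefore no test of a difference between the groups. COL5A2 gave 13.14, 12.72, 13.47 and 12.69 in healthy cows and 12.09, 11.78, 11.85 and 14.58 in SCE cows, with the first 3 SCE cows below all healthy cows and cow 846 above them. The cow was not left out for a fault of its array, whose median signal of 347 lay within the range of the others.

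**Figure D5:**
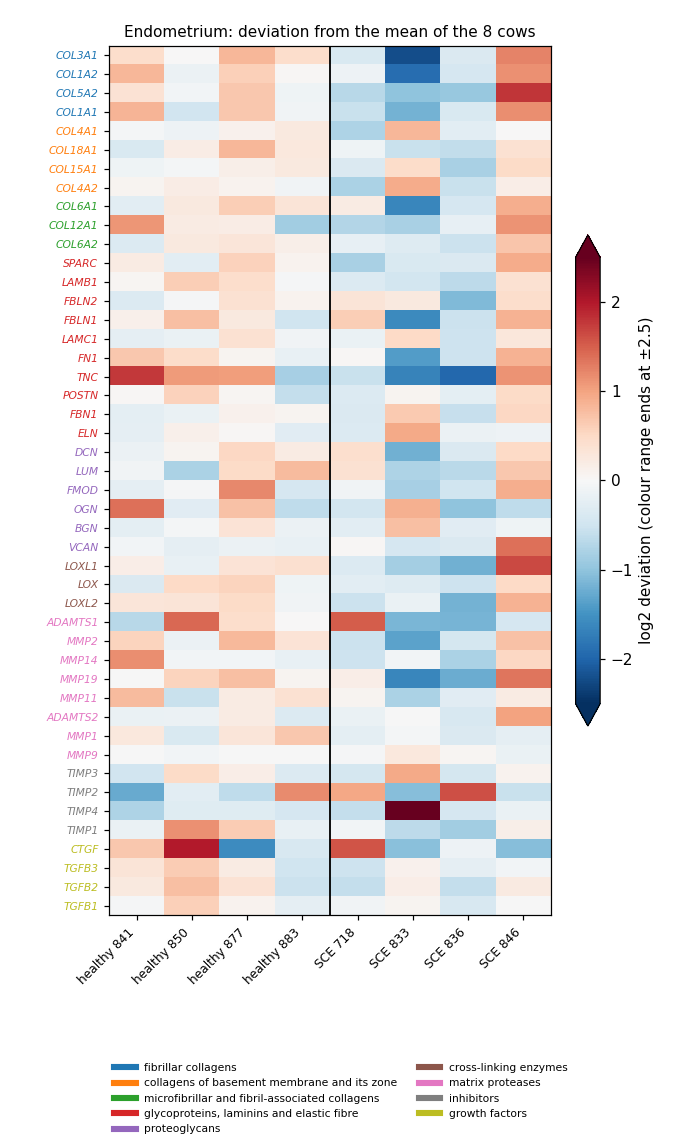
Colours give the deviation of each endometrium array from the mean of the 8 cows in log2 normalized signal, for 46 matrix genes in rows coloured by class and 4 healthy and 4 SCE cows in columns, with the colour range ending at 2.5 in either direction. Cow 846 is red for most genes, cow 836 blue for nearly all, and cow 833 blue for fibrillar collagens and red for COL4A1, COL4A2 and TIMP4.

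In WBC, differences of the matrix genes between SCE and healthy cows were small, from -0.31 in COL6A1 to 0.45 in ADAMTS2. No member passed after adjustment or had an unadjusted p at or below 0.05, against 0 and 24 of all 26542 genes (0% and 0.0904%). The difference was below 0 in 26 of 46 members, against 52.6% of all genes, and the median was -0.01 over the members and over all genes. In WBC 10 members in healthy cows and 8 in SCE cows were not well above background on any array, where a level has only an upper bound. The WBC array of cow 833 was the lowest of 8 for 20 of 46 members (43.5%) and for 28.9% of all genes. Without this cow, 17 members lay below 0 and the median over the members was 0.03. Monocyte and macrophage markers in WBC averaged 9.47 to 9.61 in healthy cows and 9.61 to 9.82 in SCE cows. The summed signal of 5 platelet markers was 20700 to 29947 in healthy cows and 24688 to 57706 in SCE cows, and neutrophil markers averaged 11.69 to 12.41 and 11.85 to 12.30. The part of these cells in the WBC values was not tested.

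In 2 members the groups did not overlap in WBC, where 1.33% of all genes did not. ADAMTS2 gave 8.64, 8.74, 8.72 and 8.91 in healthy cows 841, 850, 877 and 883. Its values in SCE cows 718, 833, 836 and 846 were 9.01, 9.23, 9.41 and 9.17. All SCE cows lay above all healthy cows, by 0.45 ± 0.12 in the mean (unadjusted p = 0.074, adjusted p = 0.999997; exact permutation test, two-sided, p = 0.0286, the smallest that 4 against 4 allow). Its unadjusted p ranged from 0.0042 to 0.228 over the alternative settings, and its tissue difference did not pass. In the endometrium ADAMTS2 overlapped, with 8.95, 8.96, 9.32 and 8.77 in healthy and 8.95, 9.09, 8.71 and 10.12 in SCE cows.

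COL6A1 gave 8.21, 8.08, 8.21 and 8.55 in WBC of healthy cows and 8.04, 7.80, 7.92 and 8.04 in WBC of SCE cows, all of which lay lower. The difference was -0.31 ± 0.13 (unadjusted p = 0.358, adjusted p = 0.999997; exact permutation test, two-sided, p = 0.0286). Its 3 probes had WBC means in healthy cows of 12.19, 5.82 and 6.77, of which only the first was above background on all arrays. Between SCE and healthy WBC the 3 probes differed by -0.29, -0.09 and -0.56 (unadjusted p = 0.449, 0.862 and 0.03). The largest of these came from a probe that was not above background on all arrays. In the endometrium COL6A1 gave 13.03, 13.52, 13.91 and 13.61 in healthy and 13.49, 11.67, 12.87 and 14.21 in SCE cows, which overlapped. With 46 members in 2 tissues, 92 such comparisons were made.

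Whether the SCE difference itself differed between endometrium and WBC was tested in 1 model of the 4 groups. No member passed after adjustment and none had an unadjusted p at or below 0.05, where 0 and 102 of all 26523 genes did (0% and 0.385%). The difference, endometrium minus WBC, was below 0 in 35 of 46 members with a median of -0.30, where 48.4% of all genes were below 0. Without SCE cow 833, 10 of the 46 members changed sign. TNC had the smallest p, at -1.66 ± 0.81 (unadjusted p = 0.0683), followed by TIMP1 at -0.76 ± 0.42 and MMP2 at -0.79 ± 0.44.

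Further genes of the pathway were read from lists that hold no member. Of 11 other collagens, 10 lay below 0 in the SCE endometrium with a median of -0.72. Of these 11, 3 had an unadjusted p at or below 0.05, all 3 lower in SCE cows, while none passed after adjustment. Of all genes, 49.4% lay below 0 and 0.381% had an unadjusted p at or below 0.05. The lists were read in the same biopsies as the members and are not separate observations. COL9A3, a fibril-associated collagen, ranged from 6.85 to 8.28 in healthy cows and from 6.12 to 7.21 in SCE cows (-0.98 ± 0.35, unadjusted p = 0.0418). COL11A1, a minor fibrillar collagen, ranged from 6.44 to 7.42 and from 5.84 to 6.45 (unadjusted p = 0.0423), and COL4A5, a basement membrane chain, from 9.54 to 10.51 and from 8.21 to 9.89 (unadjusted p = 0.0498). The groups touched or overlapped in each of the 3. On the endometrium arrays the weakest signal still well above background was 5.49 to 5.78, close to the lowest COL11A1 value. Of 11 genes of collagen maturation, which hydroxylate, fold and trim the chains, 10 lay below 0 with a median of -0.12. No gene of the other lists passed in the SCE endometrium even without adjustment: 7 of 17 other matrix proteases, 11 of 18 genes of the TGF-beta pathway and 10 of 18 integrins and matrix receptors lay below 0.

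Between tissues, the counts of each list in healthy cows are to be read against 19.3% of all genes higher and 26.4% lower. Of collagen maturation, 8 of 11 genes were higher in the endometrium and none was lower, with SERPINH1, the collagen chaperone HSP47, at 4.07 and P4HA2, a prolyl hydroxylase subunit, at 3.20. Of the other collagens 8 of 11 were higher and none lower, with COL16A1 at 6.76 and COL4A5 at 4.51. Other matrix proteases were mixed, with 7 of 17 higher and 3 lower. PLAT, the tissue plasminogen activator, was at 9.80, ADAMTS5, an aggrecanase, at 3.27 and ADAM19, a membrane-bound metalloproteinase, at -2.23. Of the TGF-beta pathway 7 of 18 were higher and 3 lower, with BAMBI, a decoy receptor, at 2.99 and TGFBR3, the betaglycan co-receptor, at 2.78. Of the integrins and matrix receptors 10 of 18 were higher and 2 lower, with SDC1, a syndecan of epithelium, at 4.28, SDC2 at 4.21 and CD44, the hyaluronan receptor of leukocytes, at -3.49. In SCE cows, where 19% of all genes were higher and 24.8% lower, the genes higher and lower were 7 and 0 of collagen maturation, 6 and 0 of the other collagens, 8 and 2 of the other proteases, 8 and 4 of the TGF-beta pathway and 10 and 2 of the integrins and receptors. In WBC no gene of these lists passed the comparison of SCE and healthy cows, and the medians of the lists lay between -0.03 and 0.07.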

How the data were processed

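The authors hybridised Cy3-labelled RNA to 1-colour Agilent bovine arrays and deposited a scanner file for each of 16 samples (Agilent Feature Extraction 10.10.1.1) and a table of quantile-normalized values. The median spot signal of the deposited scanner files, a fluorescence intensity with no background subtracted, was used here. The deposited table ranked the spots of every array alike (rank correlation of at least 0.999989) and served as an alternative. Spots were located on HGSC Btau_3.1 per the file headers. Control spots were left out, as were spots that the scanner software had marked as outliers. The log2 intensities of the 16 arrays were then quantile-normalized together and averaged, first per probe and then per gene name. Differences were tested with limma 3.58.1 in R 4.3.3, by TREAT against a 1.2-fold threshold with Benjamini-Hochberg adjustment over all genes at 0.05. The comparison of SCE with healthy cows was fitted in each tissue alone, and the tissues and the interaction in a model of 4 groups. Single values were tested by exact permutation (two-sided). The precision of a value is limited by the 4 cows in a group.

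The members and lists were chosen with earlier results of these data known. All 46 members with a probe are described by class. Values for every array were given for members whose groups did not overlap, the 3 largest and 3 smallest tissue differences, and every member higher in WBC, and others are said to be chosen after their values were seen or are given to show a limit. Cow numbers pair the arrays, since both came from the same animal. Over 26296 genes the deviations of the paired arrays from their group means correlated at 0.07 to 0.10 in healthy cows and at -0.22 to 0.07 in SCE cows. Alternatives were another normalization, background correction, probe summary, dim-probe filter, threshold, cow block and leaving out each cow. Values within the rows of a slide were added after the data were seen.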

Additional observations from a re-analysis of the deposited data

Results flagged for a closer look

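In groups of 4 cows, 1 value stood apart from the other 3 by Dixon's criterion in 15 of 184 groups tested (46 genes in 4 groups, 8.15%), where chance gives about 1 in 20. Of the 15, 7 were arrays of SCE cow 833. In its endometrium BGN stood apart at 11.51 (others 10.48 to 10.65), ELN at 8.33 (7.04 to 7.26) and TIMP4 at 10.01 (6.44 to 6.86). In its WBC, COL4A1 stood apart at 6.59 (6.78 to 6.82), FBLN2 at 5.80 (5.48 to 5.51), FN1 at 7.15 (6.21 to 6.36) and LAMC1 at 7.11 (6.46 to 6.53). Cow 846 stood apart from the other SCE cows for COL5A2 in both tissues, at 14.58 in the endometrium (11.78 to 12.09) and at 6.90 in WBC (5.68 to 5.78). Cow 836 stood apart for FBLN2 in the endometrium at 10.50 (11.85 to 12.05). Among healthy cows, the values were 10.39 for MMP14 in the endometrium of cow 841 (9.05 to 9.16) and 6.54 for MMP9 in that of cow 850 (6.60 in the other 3). In WBC they were 6.33 for SPARC in cow 850 (5.93 to 5.94), 7.15 for OGN in cow 877 (7.57 to 7.61) and 10.94 for TIMP1 in cow 883 (11.34 to 11.39). No member had all SCE cows on one side of 0 and all healthy cows on the other between tissues. What set these values apart was not tested.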

How the results depend on the processing

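No member passed an SCE comparison or the interaction after adjustment under any alternative that was run. With all 16 arrays in 1 fit, 1 member had an unadjusted TREAT p at or below 0.05 in the SCE endometrium in place of 0, and when 1 cow was left out 0 to 8 did (8 without SCE cow 846, 1 without healthy cow 850 or 883). In WBC this count was 1 with the probe of highest signal, the dim-probe filter or a 1.1-fold threshold, 2 with no threshold or with each probe alone, and 0 to 1 when 1 cow was left out. For the interaction it was 1 with signals scaled to the 75th percentile and 0 to 7 when 1 cow was left out (7 without SCE cow 846). With the dim-probe filter, which left 31 members in WBC, 15 lay below 0 there in place of 26, and leaving out 1 cow gave 17 to 31. Between tissues, the median difference in healthy cows was 4.39 with each tissue normalized separately, 4.68 with the 75th percentile, 3.06 with normexp background correction, 3.18 with the probe of highest signal and 3.27 with probes matched through RefSeq. In SCE cows it was 3.64, 4.36 and 2.42 under the first 3 of these and 3.29 with the dim-probe filter. Matching through RefSeq added a probe to FBLN2 and to no other member. Members lower in the endometrium numbered 6 in healthy cows and 7 in SCE cows with the probe of highest signal, 6 and 8 with each probe alone, and 5 were then lower in every cow with the probe of highest signal. TIMP1 in SCE cows differed by -0.10 with the 75th percentile and, when 1 cow was left out, by -0.082 (without cow 846) to 0.21 (without cow 836), with -0.05 without cow 833, and passed in both groups with each tissue normalized separately. Members whose groups did not overlap numbered 1 with the probe of highest signal and 2 to 10 when 1 cow was left out (10 without cow 846, of which 7 in the endometrium), while the share of all genes measured on every array of the tissue rose from 1.5% to between 2.83% and 5.75% in the endometrium and from 1.33% to between 2.7% and 7.55% in WBC. TIMP2 in healthy cows passed in 8 of 19 alternatives. The cow as a replicate block moved that call (adjusted p 0.0494) and no other. The cause of these changes was not tested. Dim probes limit the WBC comparison, where many members were not well above background.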
